A study of Mus musculus with 4 samples.

Results

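The C1q-like genes C1ql1, C1ql3 and C1ql4, the cerebellins Cbln1, Cbln2 and Cbln4, the neurexophilins Nxph1 and Nxph4, and the neurexin gene Nrxn3 were followed through 4 single-cell RNA libraries of the mouse cerebellum at embryonic stage E14.5. These 9 genes, chosen by name and with earlier results of these data known, are 9 of the 32285 genes in the count matrices. Every library held cells sorted for tdTomato from animals that carried Atoh1-Cre/+ and R26LSL-tdT/+, so that tdTomato marks cells in which the Atoh1-driven Cre was active at any earlier time. The 2 control libraries had no other allele (Atoh1-Cre/+; R26LSL-tdT/+). The 2 En1/2 CKO libraries, here called CKO, were also En1lox/lox, En2lox/lox, which removes the engrailed transcription factors from the cells that express Cre and leaves both genes intact elsewhere. Animals were pooled for each library, so the n of 2 per genotype counts libraries, and a p-value measures the spread between pools. Values are given below in the order replicate 1, replicate 2.

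C1q-like proteins and cerebellins are small secreted proteins with a globular C1q domain that assemble into multimers and span the synaptic cleft. C1q-like proteins bind the adhesion receptor Adgrb3 on the postsynaptic side, and cerebellins join presynaptic neurexins to receptors of the postsynaptic cell. Neurexophilins are secreted glycoproteins that bind alpha-neurexins, and neurexins are the presynaptic receptors on which many of these partners meet. In the mature cerebellum C1ql1 is known as the ligand that climbing fibres bring to Purkinje cells, and Cbln1 as the ligand of granule cell axons.

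Cells were read in 4 classes by unique molecular identifiers (UMIs, each standing for 1 captured transcript molecule). Of 12546 kept cells, 6948 had more Pax6 than Meis2 UMIs and 3870 had more Meis2 than Pax6 UMIs. Pax6 marks the granule cell lineage, and Meis2 marks neurons of the cerebellar nuclei. An Olig2 UMI was found in 759 cells, and a Tbr1 or Lmx1a UMI in 1067 cells. These last classes cut across the first: 281 Olig2 cells were Pax6 > Meis2 and 385 were Meis2 > Pax6, and the Tbr1 or Lmx1a cells split into 444 and 478. No class took in 1501 of the kept cells.

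Kept cells per library numbered 2007 to 3931, and a pair of libraries shared 1 to 6 kept barcodes. The groups differed in depth and RNA quality: a kept cell had a median of 2734 and 2122 UMIs in control libraries against 5352 and 5544 in CKO libraries, and within the Pax6 > Meis2 class 3238 and 2339 against 13722.5 and 9818.5. In the Meis2 > Pax6 class the medians were 2617 and 2171.5 against 3110 and 2248. The median mitochondrial share of a kept cell was 5.53% and 5.66% against 3.97% and 2.66%, and cells with 4000 or more UMIs and no more than 5% of them mitochondrial, here called intact, numbered 558 and 282 against 922 and 1893. Control replicate 2 stood apart in makeup, with 2322 Meis2 > Pax6 cells among its 3931 kept cells, against 372 to 603 in the other libraries. As a check of the labels, En2 stood in Pax6 > Meis2 cells at 107 and 133 CPM in the controls and 24.1 and 18.0 CPM in the CKO libraries, and in Meis2 > Pax6 cells at 243 and 189.9 CPM in the controls and 47.3 and 42.8 CPM in the CKO libraries. Here a level in CPM is a gene's UMIs per 1000000 of the class's summed UMIs in a library, with TMM scaling common to all classes. En2 was lower in the CKO libraries of every class, with log2 fold changes from -2.78 (BH-adjusted p = 0.0348) to -2.24 (BH-adjusted p = 0.0177). En1 was still counted, in Pax6 > Meis2 cells at 167 and 234 CPM in the controls and 101 and 225 CPM in the CKO libraries. The labels do not say which part of En1 is removed, so counts at its 3′ end check nothing. Summed CPM of 4 endothelial and 4 mesenchymal markers reached at most 12.5 and 1.59 in any class and library. Haemoglobin and other erythroid RNA reached 9892 CPM in Olig2 cells of control replicate 2, against at most 22.0 in Olig2 cells of the other libraries. In that library it also stood at 1393 CPM in Pax6 > Meis2, 3733 in Meis2 > Pax6 and 5558 in Tbr1 or Lmx1a cells. In Pax6 > Meis2 cells of CKO replicate 1 it stood at 1083 CPM. Microglial markers summed to 445 CPM in Tbr1 or Lmx1a cells of control replicate 1 and to at most 9.90 in that class elsewhere. In control replicate 2 they summed to 150 CPM in Olig2 and 96.0 CPM in Meis2 > Pax6 cells.

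All 9 genes are annotated as protein coding in GENCODE M21 (GRCm38, the build that UCSC calls mm10). C1ql3 spans chr2:13003457-13011806 (minus strand), Cbln4 chr2:172036233-172043466 (minus strand), Nxph1 chr6:8948431-9249032 (plus strand), Cbln1 chr8:87468405-87472609 (minus strand) and Nxph4 chr10:127525473-127534559 (minus strand). C1ql1 spans chr11:102939264-102946688 (minus strand), Nrxn3 chr12:88722876-90334935 (plus strand) and C1ql4 chr15:99084086-99087817 (minus strand). Over aligned positions of their coding sequences, the C1q-like genes were 72.5% to 75.9% identical to each other, the cerebellins 69.5% to 75.1%, and Nxph1 and Nxph4 63.8%, within the 58.3% to 65.9% found between members of different families.

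C1ql4 and Cbln4 had the most alike levels of any pair of members over the 16 class and library values (Pearson r = 0.873, a description of sums that share libraries and depth). Both are shown with the RefSeq sequence (GRCm38.p6) just before their first exon. In C1ql4, capitals mark the letters TGACAG, the core bound by MEIS proteins, read on both strands. In Cbln4 and Nrxn3, capitals mark the letters CANNTG, the E-box bound by ATOH1 and other basic helix-loop-helix factors. Nrxn3 is shown at the most downstream of its starts in the table, inside the gene, because Nrxn3 makes long and short proteins from separate starts that counts at the 3′ end cannot tell apart.
C1ql4, chr15:99087818-99087978, minus strand: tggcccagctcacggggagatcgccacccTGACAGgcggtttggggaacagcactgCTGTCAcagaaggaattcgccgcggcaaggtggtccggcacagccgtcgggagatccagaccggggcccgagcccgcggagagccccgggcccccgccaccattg
Cbln4, chr2:172043467-172043716, minus strand: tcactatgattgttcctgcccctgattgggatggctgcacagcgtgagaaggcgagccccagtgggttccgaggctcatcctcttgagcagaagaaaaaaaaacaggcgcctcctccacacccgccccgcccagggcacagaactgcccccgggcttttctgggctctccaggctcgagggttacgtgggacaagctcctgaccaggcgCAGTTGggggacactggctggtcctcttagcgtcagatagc
Nrxn3, chr12:89812233-89812482, plus strand: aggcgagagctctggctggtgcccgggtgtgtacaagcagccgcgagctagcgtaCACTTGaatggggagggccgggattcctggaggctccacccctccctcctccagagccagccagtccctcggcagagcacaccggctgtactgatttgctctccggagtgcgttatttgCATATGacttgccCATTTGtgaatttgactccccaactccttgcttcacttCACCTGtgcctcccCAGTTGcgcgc
The C1ql4 window of 161 bases held 2 matches to TGACAG, and 10.6% of windows of that length before 32841 listed starts held at least 1. The Cbln4 window of 250 bases held 1 E-box and the Nrxn3 window 5, and 66.2% of windows of that length held at least 1. Each window was searched for every run of letters named here. The C1ql4 window held no E-box, which 51.7% of windows of its length hold. The Cbln4 and Nrxn3 windows held no TGACAG, which 15.9% of 250-base windows hold. At the other Nrxn3 starts, chr12:88794254-88794503 held 0 E-boxes and chr12:88953140-88953389 held 1, and both lacked TGACAG. None of the 3 windows held TAATTA, a core of homeodomain proteins such as engrailed, which 4.84% of 250-base windows hold. A match is only a run of letters. Windows of C1ql3 and Nxph1 lie inside annotated exons and are not printed. C1ql1, Cbln1, Cbln2 and Nxph4 had no entry in the table.

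The clearest pattern was between cell classes of the same libraries. The Meis2 > Pax6 cells had more C1ql3, C1ql4, Cbln4 and Nxph1 than the Pax6 > Meis2 cells by 3.31 to 5.05 on the log2 scale, more Nxph4, Nrxn3 and C1ql1 by 0.89 to 1.86, and less Cbln2. With the library as a block, edgeR's quasi-likelihood test called 8 of the 9 genes at a Benjamini-Hochberg (BH) adjusted p under 0.05, 7 higher and 1 lower. Over all genes tested, 52.3% were called in this comparison, 25.3% higher and 27.0% lower. The median log2 fold change of the 9 was 1.86, and that of all 12387 genes tested was -0.012. The 9 genes were chosen with earlier results of these data known. Their contrasts with all genes, here and below, are therefore a description.

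**Figure D1:**
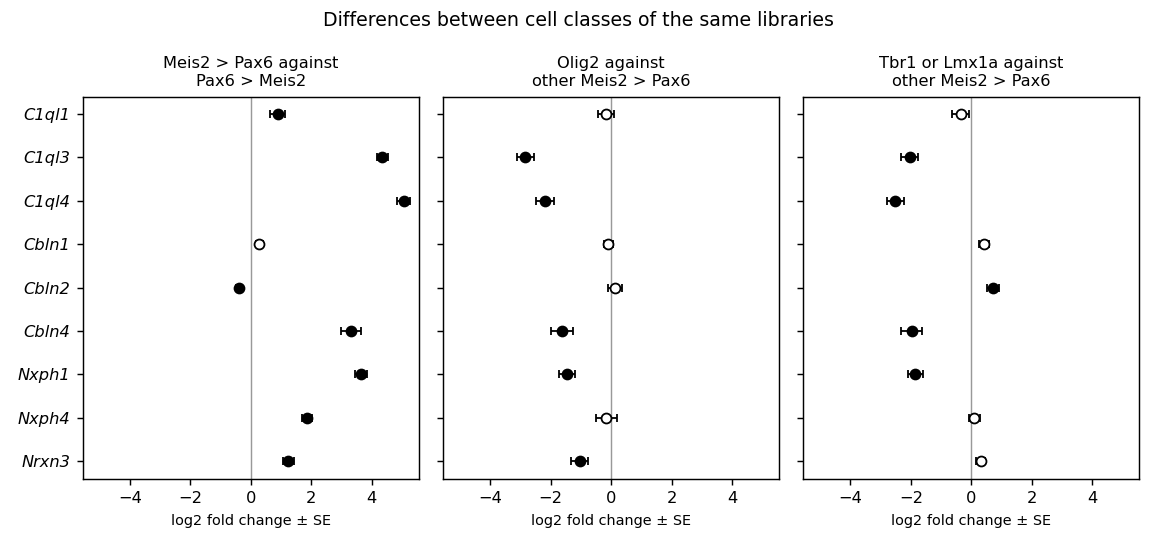
Differences in the 9 genes between cell classes of the same 4 libraries, as log2 fold change with its standard error on the x axis, from fits with the library as a block. Filled points passed an adjusted p of 0.05: 8 of 9 genes in the left panel, and 5 in each of the other panels.

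C1ql3, a secreted ligand of Adgrb3, stood in Meis2 > Pax6 cells at 411 and 491 CPM in the controls and 294 and 349.8 CPM in the CKO libraries. Its levels in Pax6 > Meis2 cells were 18.0 and 42.6 CPM in the controls and 14.3 and 12.0 CPM in the CKO libraries. The classes did not overlap in any library: the Pax6 > Meis2 level was 3.42% to 8.67% of the Meis2 > Pax6 level of the same library, highest in control replicate 2. The log2 difference was 4.34 ± 0.18 (SE, BH-adjusted p = 2.81e-08). C1ql4, another ligand of this family, stood in Meis2 > Pax6 cells at 42.7 and 102 CPM in the controls and 276 and 113 CPM in the CKO libraries. Its level there was spread widely within both groups, and CKO replicate 1 was the highest. The Pax6 > Meis2 cells had C1ql4 at 0.671 and 8.40 CPM in the controls and 7.77 and 2.83 CPM in the CKO libraries, which rests on 8 to 116 UMIs per library. The log2 difference was 5.05 ± 0.22 (SE, BH-adjusted p = 3.69e-08), the largest of the 9. C1ql1 stood in Meis2 > Pax6 cells at 16.3 and 5.86 CPM in the controls and 25.4 and 22.5 CPM in the CKO libraries, and in Pax6 > Meis2 cells at 8.31 and 8.71 CPM in the controls and 10.8 and 9.50 CPM in the CKO libraries. It was higher in Meis2 > Pax6 cells of 3 libraries and lower in control replicate 2, with a log2 difference of 0.89 ± 0.25 (SE, BH-adjusted p = 0.00846). That call was lost without CKO replicate 2, at 0.75 (BH-adjusted p = 0.0563), and in the controls alone, at 0.30 (BH-adjusted p = 0.499).

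Cbln4, a cerebellin that binds neurexins and the netrin receptors Dcc and Neo1, stood in Meis2 > Pax6 cells at 12.0 and 6.87 CPM in the controls and 30.2 and 29.1 CPM in the CKO libraries. In Pax6 > Meis2 cells it stood at 1.76 and 2.80 CPM in the controls and 1.88 and 2.43 CPM in the CKO libraries. Every library had more Cbln4 in its Meis2 > Pax6 cells, and the log2 difference was 3.31 ± 0.32 (SE, BH-adjusted p = 4.12e-06). Cbln1, the ligand that granule cells supply to their synapses, was spread over both classes. Its levels in Meis2 > Pax6 cells were 60.5 and 82.1 CPM in the controls and 64.0 and 74.6 CPM in the CKO libraries, and in Pax6 > Meis2 cells 63.7 and 77.8 CPM in the controls and 42.5 and 52.5 CPM in the CKO libraries. The log2 difference of 0.28 ± 0.12 (SE, BH-adjusted p = 0.0651) did not pass the test. It passed in the CKO libraries alone, at 0.57 (BH-adjusted p = 3e-05), without control replicate 1, at 0.40 (BH-adjusted p = 0.0221), and without control replicate 2, at 0.37 (BH-adjusted p = 0.0146). With all libraries, it also passed when library totals took the place of TMM scaling. Cbln2, which also binds neurexins, stood in Meis2 > Pax6 cells at 26.9 and 44.5 CPM in the controls and 27.9 and 24.1 CPM in the CKO libraries, and in Pax6 > Meis2 cells at 35.4 and 51.3 CPM in the controls and 35.2 and 40.2 CPM in the CKO libraries. It was lower in Meis2 > Pax6 cells of all 4 libraries, with a log2 difference of -0.39 ± 0.11 (SE, BH-adjusted p = 0.00872). The call was lost without CKO replicate 2, at -0.31 (BH-adjusted p = 0.05001), after thinning to equal depth, at -0.45 (BH-adjusted p = 0.0937), and in the controls alone, at -0.29 (BH-adjusted p = 0.239).

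Nxph1, a neurexophilin that binds alpha-neurexins, stood in Meis2 > Pax6 cells at 37.4 and 57.8 CPM in the controls and 29.5 and 16.4 CPM in the CKO libraries. The Pax6 > Meis2 cells had Nxph1 at 4.03 and 6.22 CPM in the controls and 1.54 and 0.979 CPM in the CKO libraries, and the log2 difference was 3.65 ± 0.21 (SE, BH-adjusted p = 1.04e-07). Nxph4, a related neurexophilin, stood in Meis2 > Pax6 cells at 104 and 241 CPM in the controls and 44.8 and 111 CPM in the CKO libraries. Pax6 > Meis2 cells had it at 27.0 and 94.6 CPM in the controls and 15.1 and 17.8 CPM in the CKO libraries. Control replicate 2 was the highest library for Nxph4 in both classes, and the log2 difference was 1.86 ± 0.17 (SE, BH-adjusted p = 2.18e-06). Nrxn3, the receptor of cerebellins and neurexophilins, stood in Meis2 > Pax6 cells at 158 and 98.0 CPM in the controls and 45.9 and 96.5 CPM in the CKO libraries. Its levels in Pax6 > Meis2 cells were 56.8 and 79.3 CPM in the controls and 15.0 and 32.0 CPM in the CKO libraries, lower than in the Meis2 > Pax6 cells of every library. The log2 difference was 1.23 ± 0.18 (SE, BH-adjusted p = 0.000123). It was 0.45 (BH-adjusted p = 0.0515) when each cell was first thinned at random to 1000 UMIs and classes and levels were read from the thinned counts, which no longer passed.

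**Figure D2:**
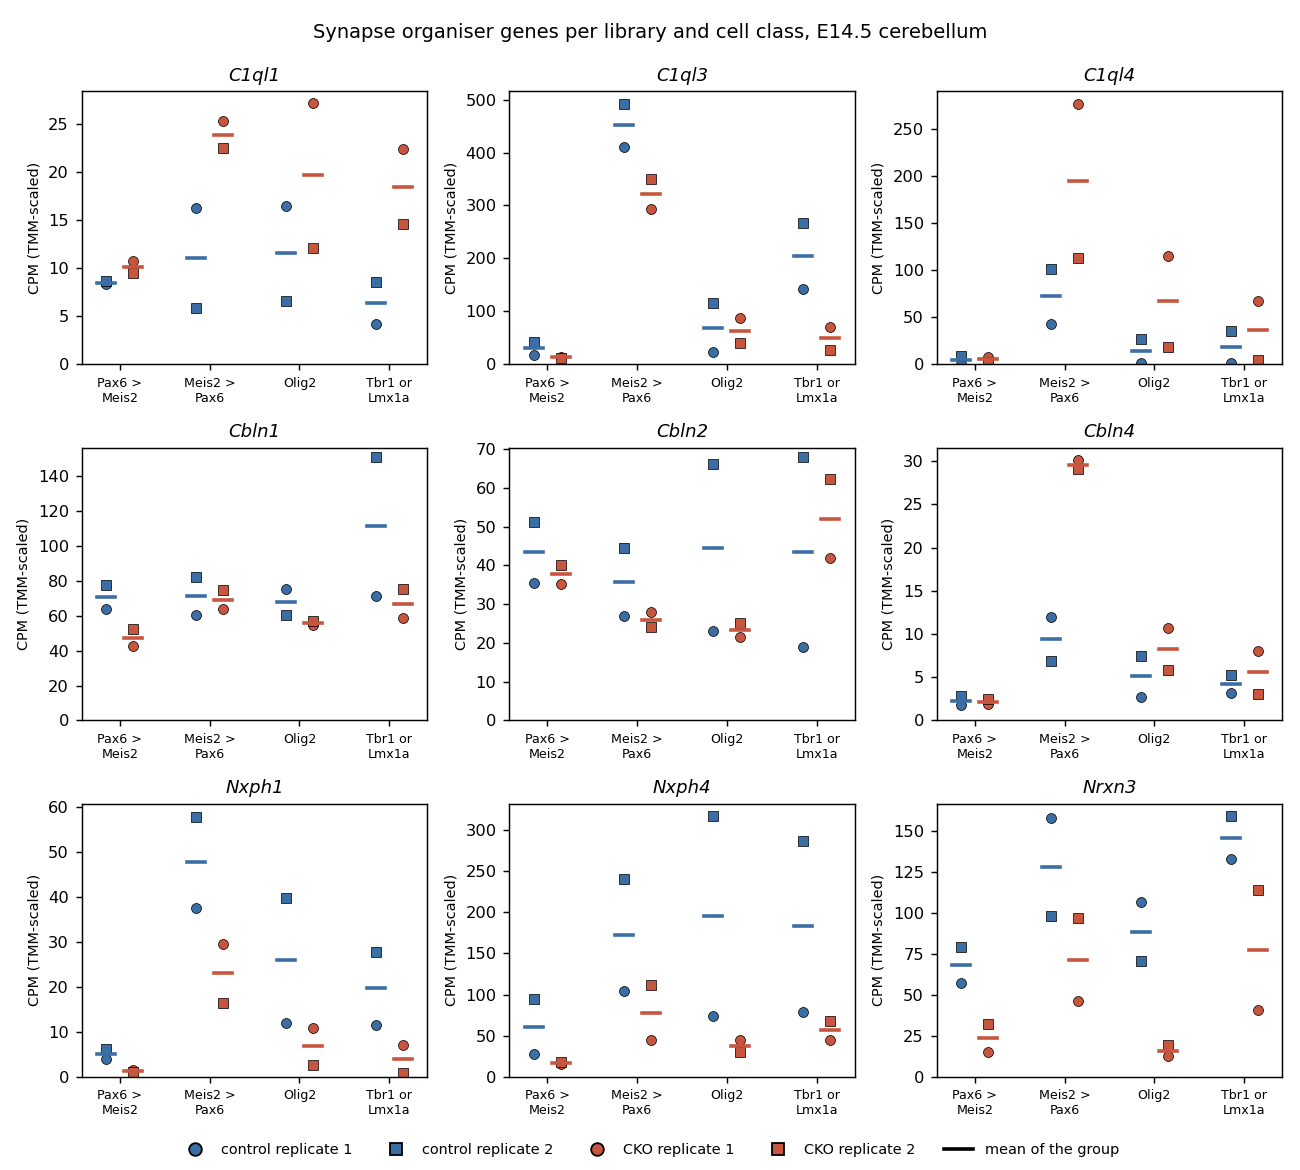
Level of each gene in TMM-scaled CPM (y axis, linear from 0, scaled per gene) in the 4 cell classes (x axis), for control (blue) and CKO (red) libraries, replicate 1 as circles and replicate 2 as squares, with the mean of the 2 libraries as a bar. C1ql3, C1ql4, Cbln4 and Nxph1 are highest in the Meis2 > Pax6 class of every library, except Cbln4 in control replicate 2 (6.87 CPM there and 7.45 CPM in Olig2 cells).

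Olig2 cells and Tbr1 or Lmx1a cells were each set against the Meis2 > Pax6 cells that had no UMI of these 3 genes (3059 cells). Both had less C1ql3, C1ql4, Cbln4 and Nxph1. Olig2 cells also had less Nrxn3, and Tbr1 or Lmx1a cells had more Cbln2. Both classes take in Pax6 > Meis2 cells, 281 of 759 and 444 of 1067, while the cells they were set against include none. Pax6 > Meis2 cells had less C1ql3, C1ql4, Cbln4, Nxph1 and Nrxn3 and more Cbln2 than Meis2 > Pax6 cells, as given above. The part of this makeup in the differences was not tested. In Olig2 cells 5 of 9 genes were called, all lower, where 20.8% of all genes tested were called and 9.30% were called lower. In Tbr1 or Lmx1a cells 5 of 9 were called, 4 lower and 1 higher, against 18.1% of all genes, with 8.0% lower and 10.1% higher.

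In Olig2 cells C1ql3 stood at 23.0 and 115 CPM in the controls and 87.1 and 39.8 CPM in the CKO libraries, and in the Meis2 > Pax6 cells without Olig2, Tbr1 or Lmx1a at 419 and 576 CPM in the controls and 362 and 399 CPM in the CKO libraries. The log2 difference was -2.84 ± 0.28 (SE, BH-adjusted p = 0.000795). C1ql4 stood in Olig2 cells at 0.918 and 27.3 CPM in the controls and 115 and 18.8 CPM in the CKO libraries and at 49.4 and 124 CPM in the controls and 302 and 127 CPM in the CKO libraries in the others, a log2 difference of -2.20 ± 0.30 (SE, BH-adjusted p = 0.00184). Control replicate 1 had a single C1ql4 UMI in its Olig2 cells. Nxph1 stood in Olig2 cells at 11.9 and 39.7 CPM in the controls and 10.7 and 2.68 CPM in the CKO libraries, and its log2 difference was -1.46 ± 0.27 (SE, BH-adjusted p = 0.00553). Those of Cbln4 and Nrxn3 were -1.63 ± 0.36 (SE, BH-adjusted p = 0.0125) and -1.04 ± 0.27 (SE, BH-adjusted p = 0.0243). Both of these calls were lost when single libraries were left out. Cbln4 lost its call without control replicate 1, at -1.54 (BH-adjusted p = 0.0721), without CKO replicate 1, at -1.60 (BH-adjusted p = 0.0807), without CKO replicate 2, at -1.27 (BH-adjusted p = 0.0720), and in the controls alone, at -0.82 (BH-adjusted p = 0.530). Nrxn3 lost it without CKO replicate 1, at -0.86 (BH-adjusted p = 0.101), without CKO replicate 2, at -0.69 (BH-adjusted p = 0.101), and in the controls alone, at -0.35 (BH-adjusted p = 0.644). After thinning, the log2 difference of Nrxn3 was 0.34, in the other direction. Olig2 cells include cells of the Pax6 > Meis2 class. In the Olig2 cells that were Meis2 > Pax6, C1ql3 stood at 70.6 and 142 CPM in the controls and 208 and 197 CPM in the CKO libraries, which lies under the level of the other Meis2 > Pax6 cells in every library, and C1ql4 stood at 7.06 and 36.9 CPM in the controls and 276 and 98.6 CPM in the CKO libraries, also lower in every library. The other 3 genes were not lower in all of them. Nrxn3 stood at 417 and 68.1 CPM in the controls and 22.6 and 38.2 CPM in the CKO libraries in these cells and at 134 and 93.5 CPM in the controls and 43.7 and 85.7 CPM in the CKO libraries in the other Meis2 > Pax6 cells, so it was higher in control replicate 1. Nxph1 stood at 42.4 and 46.2 CPM in the controls and 19.2 and 12.7 CPM in the CKO libraries, against 40.3 and 63.9 CPM in the controls and 36.1 and 18.9 CPM in the CKO libraries, also higher in control replicate 1. Cbln4 stood at 0 and 6.92 CPM in the controls and 23.7 and 25.4 CPM in the CKO libraries, against 13.6 and 6.69 CPM in the controls and 32.5 and 32.7 CPM in the CKO libraries, and was higher in control replicate 2.

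In Tbr1 or Lmx1a cells C1ql3 stood at 143 and 267 CPM in the controls and 70.6 and 27.7 CPM in the CKO libraries, with a log2 difference from the other Meis2 > Pax6 cells of -2.04 ± 0.28 (SE, BH-adjusted p = 0.000193). C1ql4 stood at 1.05 and 35.6 CPM in the controls and 67.6 and 4.61 CPM in the CKO libraries, with a difference of -2.51 ± 0.28 (SE, BH-adjusted p = 5.32e-05). Among the Tbr1 or Lmx1a cells that were Meis2 > Pax6, C1ql3 stood at 525 and 389 CPM in the controls and 189 and 204 CPM in the CKO libraries, so that control replicate 1 had more C1ql3 there than in its other Meis2 > Pax6 cells and the other 3 libraries had less. The differences of Cbln4 and Nxph1 were -1.97 ± 0.34 (SE, BH-adjusted p = 0.00103) and -1.85 ± 0.26 (SE, BH-adjusted p = 0.000223). The difference of Nxph1 after thinning was -0.78 (BH-adjusted p = 0.356), and that of Cbln4 in the controls alone was -1.04 (BH-adjusted p = 0.412). Cbln2 stood at 18.9 and 68.0 CPM in the controls and 41.8 and 62.2 CPM in the CKO libraries in these cells, and its difference was 0.71 ± 0.20 (SE, BH-adjusted p = 0.0217). That call was lost without CKO replicate 1, at 0.66 (BH-adjusted p = 0.107), without CKO replicate 2, at 0.59 (BH-adjusted p = 0.0991), after thinning, at 0.23 (BH-adjusted p = 0.922), in the controls alone, at 0.42 (BH-adjusted p = 0.592), and with DESeq2, at 0.64 (BH-adjusted p = 0.200). Cbln1 and Nrxn3 stood at 71.5 and 151 CPM in the controls and 58.5 and 75.3 CPM in the CKO libraries and at 132 and 159 CPM in the controls and 40.5 and 114 CPM in the CKO libraries, and neither passed the test against the other Meis2 > Pax6 cells. Apart from C1ql3, levels in the Tbr1 or Lmx1a cells that were Meis2 > Pax6 are not given here.

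Ordered by their mean over the 4 libraries, C1ql3 ran from Meis2 > Pax6 cells (386 ± 84.8 CPM, SD, n = 4) through Tbr1 or Lmx1a cells (127 ± 105) and Olig2 cells (66.2 ± 42.4) to Pax6 > Meis2 cells (21.7 ± 14.1). Tbr1 or Lmx1a and Olig2 cells are neighbours whose means differed by less than the SD of the former. C1ql4, Cbln4 and Nxph1 ran from Meis2 > Pax6 through Olig2 and Tbr1 or Lmx1a to Pax6 > Meis2 cells, with the middle classes closer to each other than the larger SD of the pair. For Cbln4 the means were 19.5 ± 11.8, 6.69 ± 3.32, 4.88 ± 2.33 and 2.22 ± 0.486 CPM. Nxph4 had nearly the same mean in 3 classes, 125 ± 82.6 CPM in Meis2 > Pax6, 120 ± 113 in Tbr1 or Lmx1a and 117 ± 135 in Olig2 cells, and 38.6 ± 37.6 in Pax6 > Meis2 cells. Nrxn3 and Cbln1 had their highest means in Tbr1 or Lmx1a cells, at 111 ± 50.8 and 89.1 ± 41.9 CPM, which exceeded the means in Meis2 > Pax6 cells by less than these SDs. C1ql1 (9.33 to 17.5 CPM) and Cbln2 (30.9 to 47.7 CPM) had means that differed between neighbours by less than the larger SD of the pair at every step of their order.

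Against the controls, none of the 9 genes passed the test in the CKO libraries of any class. Nxph1, Nxph4 and Nrxn3 had lower levels in CPM in the CKO libraries of all 4 classes, with both CKO libraries below both controls in every class except for Nxph4 in Meis2 > Pax6 cells. In shares of cells at equal depth, given below, this held only for Nxph4 and Nrxn3 in Pax6 > Meis2 cells. The groups overlapped for Nxph1 in every class and for all of these genes in the other classes. C1ql1 and C1ql4 had higher fitted levels in all 4 classes, and Cbln4 in the 3 classes in which it was tested, although its value in Pax6 > Meis2 cells was near 0 and turned negative with library totals in place of TMM scaling. In Pax6 > Meis2 cells 0 of 9 genes were called, where 0.0574% of all genes tested were. An unadjusted p under 0.05 was found for 5 of 9 there and for 9.82% of all genes. In Meis2 > Pax6 cells 0 of 9 were called, where 0.212% of all genes were, and 6 had an unadjusted p under 0.05, as did 14.7% of all genes. In Olig2 cells 0 of 9 were called, where 0.0190% of all genes were, and 3 had an unadjusted p under 0.05, as did 7.63% of all genes. In Tbr1 or Lmx1a cells 0 of the 8 tested were called, where 0.00981% of all genes were, and 4 had an unadjusted p under 0.05, as did 8.94% of all genes. Cbln4 was too low there to be tested. DESeq2 gave an adjusted p to 9, 7, 8 and 5 of the genes in these classes, in the same order, and called 1, 0, 2 and 1 of them, where it called 0.613%, 2.97%, 0.194% and 0.319% of all genes. Where a library is left out below, the lone library of its group is assumed to vary like those of the other group. Leaving out a library also moved the number of genes called in all, to between 2 and 123 in Pax6 > Meis2, 44 and 751 in Meis2 > Pax6, 28 and 1308 in Olig2 and 6 and 461 in Tbr1 or Lmx1a cells, so a call gained that way is not particular to a gene named here.

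Both CKO libraries lay above both controls for 1 and below for 5 of 9 genes in Pax6 > Meis2 cells, where 23.4% of all genes lay above and 23.1% below. The counts were 3 above and 3 below in Meis2 > Pax6 cells (20.9% and 23.9% of all genes), 0 above and 4 below in Olig2 cells (22.8% and 18.4%), and 1 above and 4 below in Tbr1 or Lmx1a cells (22.9% and 19.2%). The median log2 fold change of the members tested was -0.57, -0.47, -0.30 and -0.86 in these classes, and between -0.010 and 0.0093 for all genes tested. After thinning it was -0.68 over 7 members in Pax6 > Meis2, -0.060 over 7 in Meis2 > Pax6 and -0.074 over 3 in Tbr1 or Lmx1a cells, and no member had enough UMIs in Olig2 cells. Over intact cells it was -0.40, -0.41, -0.31 and -0.72.

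**Figure D3:**
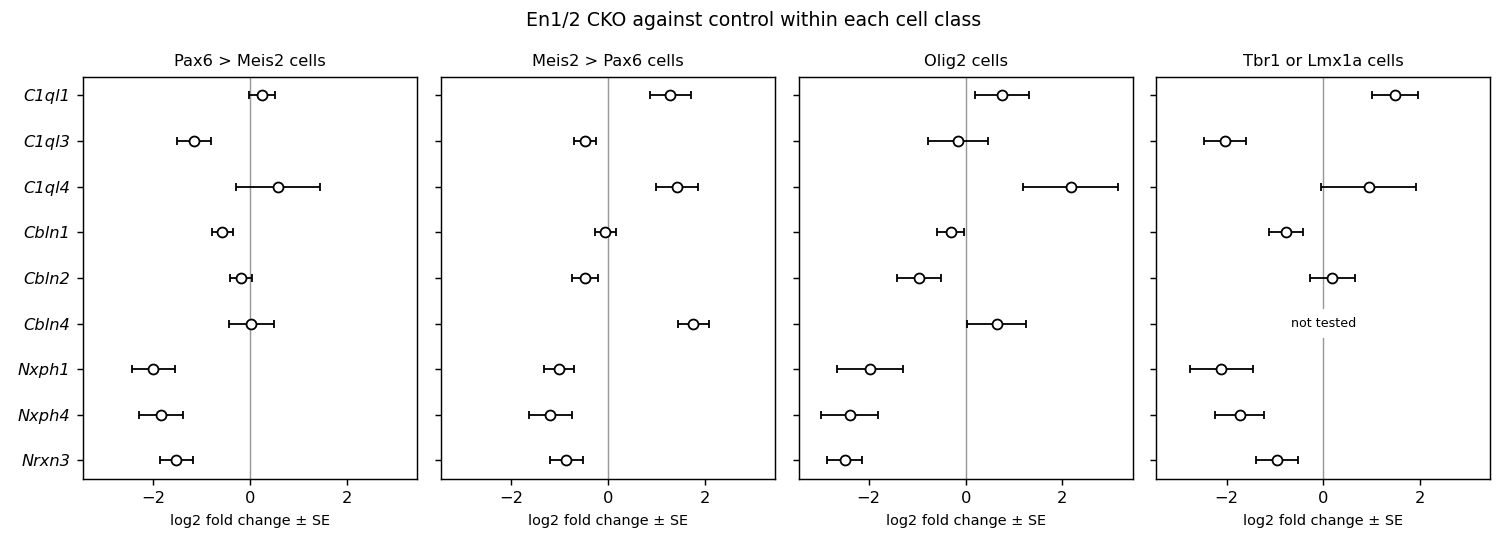
CKO against control in each cell class, as log2 fold change with its standard error (x axis) from edgeR fits to 2 control and 2 CKO libraries. Open points did not pass an adjusted p of 0.05, which holds for every gene; Nxph1, Nxph4 and Nrxn3 lie left of 0 in all 4 panels, and Cbln4 in Meis2 > Pax6 cells lies at 1.76.

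Among the ligands, Cbln4 in Meis2 > Pax6 cells came nearest to the threshold. Its 25 and 41 UMIs in the controls and 132 and 53 UMIs in the CKO libraries gave levels of 12.0 and 6.87 CPM against 30.2 and 29.1 CPM, groups that did not overlap. The log2 fold change was 1.76 ± 0.32 (SE, BH-adjusted p = 0.0788). It passed without control replicate 1, at 2.13 (BH-adjusted p = 0.000196), and without CKO replicate 2, at 1.81 (BH-adjusted p = 0.0122). Over intact cells only it was 0.52 (BH-adjusted p = 0.723). In Pax6 > Meis2 cells the log2 fold change of Cbln4 was 0.031 ± 0.46 (SE, BH-adjusted p = 0.987), and its direction turned with the scaling or with the libraries used. Cbln1 was lower in both CKO libraries of Pax6 > Meis2 cells, at a log2 fold change of -0.57 ± 0.22 (SE, BH-adjusted p = 0.463), and its log2 fold change in Meis2 > Pax6 cells was -0.049 ± 0.22 (SE, BH-adjusted p = 0.942), with no steady direction when libraries were left out. In Tbr1 or Lmx1a cells Cbln1 had a log2 fold change of -0.76 (BH-adjusted p = 0.557), and one of -1.20 (BH-adjusted p = 0.0443) without control replicate 1. Cbln2 had log2 fold changes of -0.18 (BH-adjusted p = 0.793), -0.47 (BH-adjusted p = 0.480), -0.97 (BH-adjusted p = 0.673) and 0.18 (BH-adjusted p = 0.903) in Pax6 > Meis2, Meis2 > Pax6, Olig2 and Tbr1 or Lmx1a cells. It passed in Olig2 cells without control replicate 1, at -1.51 (BH-adjusted p = 0.00129).

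C1ql4 and C1ql1 were above both controls in both CKO libraries of Meis2 > Pax6 cells. The log2 fold change of C1ql4 there was 1.43 ± 0.44 (SE, BH-adjusted p = 0.190), and it passed without control replicate 2, at 2.22 (BH-adjusted p = 8.35e-05), and without CKO replicate 2, at 1.93 (BH-adjusted p = 0.00822). That of C1ql1 was 1.29 ± 0.42 (SE, BH-adjusted p = 0.212), and it passed without control replicate 1, at 2.06 (BH-adjusted p = 0.000793). In Olig2 cells the groups of C1ql4 overlapped, and it had a log2 fold change of 2.17 ± 0.97 (SE, BH-adjusted p = 0.653). It passed there without control replicate 1, at 1.28 (BH-adjusted p = 0.0469), without control replicate 2, at 6.04 (BH-adjusted p = 0.00586), and without CKO replicate 2, at 2.97 (BH-adjusted p = 8.5e-07). The log2 fold change of C1ql4 in Tbr1 or Lmx1a cells was 0.93 ± 0.99 (SE, BH-adjusted p = 0.752). Without CKO replicate 2 it was 1.77 (BH-adjusted p = 0.0110), and without the other CKO library -2.07. In Pax6 > Meis2 cells it was 0.58 ± 0.87 (SE, BH-adjusted p = 0.830), with -0.66 without control replicate 1. C1ql1 was above both controls in Tbr1 or Lmx1a cells, at a log2 fold change of 1.48 ± 0.47 (SE, BH-adjusted p = 0.475). Beside these values, 8 granule lineage markers were summed in Meis2 > Pax6 cells. Control sums were 1520 and 1235 CPM, and CKO sums 1931 and 2041 CPM. The CKO values of 6 markers exceeded both controls, and those of 1 marker were lower than both. The list includes Pax6, which was used to set the class. The part of these markers in the result was not tested. The share of Meis2 > Pax6 cells in Olig2 cells differed by library, as given below for Nrxn3. Among only the Olig2 cells that were also Meis2 > Pax6, C1ql4 passed, where 356 of 7815 genes tested did. What that share adds to the C1ql4 values of the whole class was not tested.

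C1ql3 went the other way. It was below both controls in Pax6 > Meis2 cells, at a log2 fold change of -1.15 ± 0.35 (SE, BH-adjusted p = 0.350), in Meis2 > Pax6 cells, at a log2 fold change of -0.48 ± 0.22 (SE, BH-adjusted p = 0.362), and in Tbr1 or Lmx1a cells, at a log2 fold change of -2.04 ± 0.43 (SE, BH-adjusted p = 0.341). In the last class the 136 and 405 UMIs in the controls and 211 and 36 UMIs in the CKO libraries amount to 143 and 267 against 70.6 and 27.7 CPM. Meis2 > Pax6 cells, which hold most C1ql3, were 49 of the 144 and 306 of the 511 cells of that class in the controls and 95 of the 264 and 28 of the 148 in the CKO libraries. Among those cells alone C1ql3 was below both controls in both CKO libraries, at the values given above. Across the whole class C1ql3 passed without control replicate 1, at -2.40 (BH-adjusted p = 0.0108), and without CKO replicate 1, at -2.90 (BH-adjusted p = 0.0411), and in Pax6 > Meis2 cells without control replicate 1, at -1.66 (BH-adjusted p = 0.0419). In Olig2 cells its groups overlapped, at a log2 fold change of -0.16 ± 0.61 (SE, BH-adjusted p = 0.951), and the direction turned when control replicate 2 was left out, at 1.43. In Meis2 > Pax6 cells the log2 fold change was 0.043 after thinning, so the lower level there was not seen. Thinning changes depth, the weight of each cell and the cells in the class together, and their parts were not tested.

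Nrxn3 in Olig2 cells had the lowest unadjusted p of the 9 genes in any CKO comparison. Its 116 and 85 UMIs in the controls and 28 and 43 UMIs in the CKO libraries correspond to 107 and 70.4 CPM in the controls and 12.5 and 19.2 CPM in the CKO libraries, groups that did not overlap. A cell of this class had a median of 4233.5 and 2605.5 UMIs in control libraries against 13268 and 14646 in CKO libraries. Meis2 > Pax6 cells were 29 of the 112 and 266 of the 366 cells of the class in the controls. They were 65 of the 138 and 25 of the 143 in the CKO libraries. The part of depth in the Nrxn3 result was not tested. Among only the Olig2 cells that were also Meis2 > Pax6, Nrxn3 passed, where 356 of 7815 genes tested did. What the makeup adds to the values of the whole class was not tested. Over the whole class the log2 fold change of Nrxn3 was -2.50 ± 0.36 (SE, BH-adjusted p = 0.103), short of the threshold. With any 1 library left out it passed: -2.14 (BH-adjusted p = 6.6e-06) without control replicate 1, -2.77 (BH-adjusted p = 2.02e-05) without control replicate 2, -2.22 (BH-adjusted p = 0.0101) without CKO replicate 1 and -2.83 (BH-adjusted p = 0.000237) without CKO replicate 2. In Pax6 > Meis2 cells Nrxn3 had a log2 fold change of -1.52 ± 0.33 (SE, BH-adjusted p = 0.179), and one of -2.17 (BH-adjusted p = 0.000466) without CKO replicate 2. In Meis2 > Pax6 cells it had a log2 fold change of -0.85 ± 0.34 (SE, BH-adjusted p = 0.291), and one of -1.42 (BH-adjusted p = 0.0149) without CKO replicate 2. The groups there were separated by no more than 98.0 against 96.5 CPM. In Tbr1 or Lmx1a cells it had a log2 fold change of -0.96 ± 0.43 (SE, BH-adjusted p = 0.557), one of -1.85 (BH-adjusted p = 0.0184) without CKO replicate 2, and one of 0.31 after thinning.

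The neurexophilins had the lowest log2 fold changes of the 9 genes in Pax6 > Meis2 cells. Nxph1 had there a log2 fold change of -1.99 ± 0.45 (SE, BH-adjusted p = 0.200), from 48 and 20 UMIs in the controls and 23 and 27 UMIs in the CKO libraries, and Nxph4 one of -1.84 ± 0.45 (SE, BH-adjusted p = 0.235). Nxph4 passed in that class without control replicate 1, at -2.47 (BH-adjusted p = 0.0232), and without CKO replicate 2, at -1.96 (BH-adjusted p = 0.0281). In Meis2 > Pax6 cells Nxph1 had a log2 fold change of -1.002 ± 0.31 (SE, BH-adjusted p = 0.189) and Nxph4 one of -1.18 ± 0.44 (SE, BH-adjusted p = 0.260). Without control replicate 1 both passed, at -1.25 (BH-adjusted p = 0.0145) and -1.63 (BH-adjusted p = 0.000584), and Nxph4 also without CKO replicate 2, at -1.93 (BH-adjusted p = 0.0160). After thinning, the log2 fold change of Nxph1 was -0.072 in these cells. In Olig2 cells Nxph4 stood at 74.4 and 317 CPM in the controls and 45.1 and 30.4 CPM in the CKO libraries, a log2 fold change of -2.40 ± 0.58 (SE, BH-adjusted p = 0.451). It passed without control replicate 1, at -3.07 (BH-adjusted p = 5.81e-12), and without CKO replicate 1, at -2.71 (BH-adjusted p = 0.00157). Nxph1 had a log2 fold change of -1.97 ± 0.69 (SE, BH-adjusted p = 0.598) in Olig2 cells, and passed without control replicate 1, at -2.56 (BH-adjusted p = 3.19e-05), and without CKO replicate 1, at -3.26 (BH-adjusted p = 0.0145). In Tbr1 or Lmx1a cells their log2 fold changes were -2.11 (BH-adjusted p = 0.474) and -1.73 (BH-adjusted p = 0.474). Both passed there without control replicate 1, at -2.53 (BH-adjusted p = 0.0388) and -2.38 (BH-adjusted p = 0.00698), and Nxph4 without CKO replicate 2, at -2.03 (BH-adjusted p = 0.00983). The single Nxph1 UMI of CKO replicate 2 in this class makes that log2 fold change imprecise. The share of Meis2 > Pax6 cells in Olig2 and in Tbr1 or Lmx1a cells differed by library, as given above. Among only the Olig2 cells that were also Meis2 > Pax6, Nxph4 passed, where 356 of 7815 genes tested did. Among only the Tbr1 or Lmx1a cells that were also Meis2 > Pax6, 0 of 7 members tested and 0 of 7553 genes passed. What that share adds to the neurexophilin values of the whole classes was not tested.

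Beside the lower neurexophilin and Nrxn3 levels, 8 GABAergic markers summed to 40.3 and 63.5 CPM in the controls and 10.9 and 21.8 CPM in the CKO libraries of Pax6 > Meis2 cells, with 5 of 8 below both controls. In Olig2 cells they summed to 64.3 and 34.8 against 8.04 and 13.0 CPM, with 3 of 8 below both. The sums were 57.8 and 52.1 against 16.1 and 36.1 CPM in Tbr1 or Lmx1a cells, with 2 of 8 below both, and in Meis2 > Pax6 cells 105 and 70.3 against 36.3 and 72.9 CPM, with 5 of 8 below both although the sums overlapped. In Pax6 > Meis2, Olig2 and Tbr1 or Lmx1a cells 1 of the 8 GABAergic markers was above both controls, and in Meis2 > Pax6 cells 0 were. Ptf1a, a defining gene of that list, was at 0 in all libraries of Meis2 > Pax6, Olig2 and Tbr1 or Lmx1a cells. The 8 excitatory nuclei markers, which include Meis2, Tbr1 and Lmx1a of the class rule, had sums that overlapped in every class. These were 176 and 512 against 219 and 124 CPM in Pax6 > Meis2 and 508 and 2011 against 1274 and 436 in Olig2 cells. In Tbr1 or Lmx1a cells they were 815 and 2193 against 1028 and 462, and in Meis2 > Pax6 cells 2279 and 3127 against 2660 and 2265. In this order 2, 0, 3 and 1 of 8 were below both controls and 0, 0, 0 and 1 above. Sums of 5 unipolar brush markers, Lmx1a among them, overlapped in Pax6 > Meis2 cells. They were 75.4 and 130 against 59.4 and 37.8 CPM in Meis2 > Pax6 and 68.9 and 91.9 against 38.4 and 41.1 in Olig2 cells. In Tbr1 or Lmx1a cells they were 252 and 493 against 210 and 215. Sums of 5 glial and progenitor markers were 139 and 64.7 against 186 and 227 CPM in Tbr1 or Lmx1a cells and overlapped elsewhere. The part of any of these lists was not tested.

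The 9 genes were also compared for whether the CKO effect itself differed between Meis2 > Pax6 and Pax6 > Meis2 cells. The interaction term called 0 of 9 genes, where 0.114% of all genes tested were called, and 5 of 9 had an unadjusted p under 0.05, as did 5.64% of all genes. The term was above 0 for 8 of 9, with the largest at 1.60 ± 0.52 (SE, BH-adjusted p = 0.515) for Cbln4, 0.97 ± 0.33 (SE, BH-adjusted p = 0.577) for Nxph1 and 0.94 ± 0.41 (SE, BH-adjusted p = 0.854) for C1ql1. Only Cbln2 was below 0, at -0.19 (BH-adjusted p = 1.00). Without control replicate 1 the genes called rose from 15 to 422 in all, 3.14% of those tested, and 6 of the 9 passed: C1ql1 at 1.80 (BH-adjusted p = 0.00547), C1ql3 at 1.09 (BH-adjusted p = 2.04e-05), C1ql4 at 1.62 (BH-adjusted p = 0.000454), Cbln4 at 2.47 (BH-adjusted p = 0.0222), Nxph4 at 0.79 (BH-adjusted p = 0.00222) and Nrxn3 at 1.29 (BH-adjusted p = 8.24e-09). After thinning C1ql3 passed alone, at 1.61 (BH-adjusted p = 0.000297). Over intact cells the terms of C1ql3, Cbln4 and Nxph4 were -0.19, -0.78 and -0.14.

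Shares of cells with at least 1 UMI of a gene were counted with every cell thinned to 1000 UMIs, which all kept cells reach. In Meis2 > Pax6 cells C1ql3 was found in 26.0% and 27.0% in control and 27.6% and 24.7% in CKO libraries, so the groups overlapped. Without thinning the shares were 40.1% and 38.1% in control and 42.9% and 36.8% in CKO libraries. C1ql4 was found in 2.86% and 8.61% in control and 20.3% and 9.15% in CKO libraries of thinned Meis2 > Pax6 cells, and in 7.63% and 13.9% in control and 38.4% and 23.4% in CKO libraries of unthinned ones. Both CKO libraries were above both controls. Cbln4 was found in 0.613% and 0.735% in control and 2.16% and 1.83% in CKO libraries after thinning, from 3 of 489, 14 of 1905, 10 of 463 and 6 of 328 cells, and in 2.49% and 1.59% in control and 14.1% and 9.14% in CKO libraries before. The exact permutation test of 4 library shares gave p = 0.333 for both genes, two-sided, which is the smallest p it allows. In Pax6 > Meis2 cells Nxph4 was found in 4.62% and 9.83% in control and 1.69% and 2.80% in CKO libraries and Nrxn3 in 7.43% and 8.73% in control and 3.54% and 5.17% in CKO libraries after thinning. Before thinning their groups overlapped, at 11.6% and 21.4% in control and 12.0% and 10.2% in CKO libraries for Nxph4 and 18.4% and 14.9% in control and 12.6% and 17.7% in CKO libraries for Nrxn3. In the other classes both genes overlapped after thinning too. Thinned Nrxn3 shares in Meis2 > Pax6 cells were 9.41% and 5.56% in control and 6.70% and 9.76% in CKO libraries. In Tbr1 or Lmx1a cells they were 15.4% and 10.4% against 15.2% and 18.2%. Nxph1 overlapped after thinning in every class, at 3.27% and 5.83% in control and 6.26% and 3.66% in CKO libraries of Meis2 > Pax6 cells. Of the 35 pairs of gene and class that were tested in the fits, 9 had groups that did not overlap after thinning, where 31.8% of all such pairs over all genes tested did not, and 17 before it, where 81.5% did not. The members' counts are thus no higher than those of all genes. Erythroid cells (at least 10% haemoglobin UMIs), which should lack these genes, numbered 19 in 3 libraries, too few for a background share, so the part of free RNA in low shares was not tested.

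A list of 38 other family members, receptors and partners was read in the same fits. In the CKO comparisons 0 of 34, 32, 27 and 27 tested genes were called in Pax6 > Meis2, Meis2 > Pax6, Olig2 and Tbr1 or Lmx1a cells. Their median log2 fold changes were -0.58, -0.47, -0.56 and -0.65, where all genes tested had medians near 0. Over intact cells the medians were -0.26, -0.49, -0.19 and -0.24, and after thinning -0.24, -0.0059, 0.086 and -0.075. Between classes, 21 of the 30 tested were higher in Meis2 > Pax6 than in Pax6 > Meis2 cells, 4 were lower and 5 did not pass. Of all genes tested, 25.3% were higher and 27.0% lower. The leucine-rich neurexin ligand Lrrtm3 stood in Meis2 > Pax6 cells at 63.4 and 76.4 CPM in the controls and 55.1 and 36.7 CPM in the CKO libraries and at 14.2 and 13.1 CPM in the controls and 6.43 and 4.53 CPM in the CKO libraries in Pax6 > Meis2 cells, a log2 difference of 2.69 ± 0.16 (SE, BH-adjusted p = 1.4e-07). The neurexin gene Nrxn2 was higher too, by 1.51 ± 0.12 (SE, BH-adjusted p = 1.12e-06). So were Tafa1, a secreted neurexin ligand, at 2.85 ± 0.23 (SE, BH-adjusted p = 8.72e-07), Adgrb1, an adhesion receptor, at 2.28 ± 0.20 (SE, BH-adjusted p = 2.18e-06), the neuroligin Nlgn3 at 1.25 ± 0.13 (SE, BH-adjusted p = 5.9e-06) and the scaffold Lin7a at 1.76 ± 0.18 (SE, BH-adjusted p = 7.51e-06). The Cbln4 receptor Neo1 went the other way, at 99.4 and 84.2 CPM in the controls and 57.1 and 70.2 CPM in the CKO libraries in Meis2 > Pax6 cells and 195 and 198 CPM in the controls and 122 and 167 CPM in the CKO libraries in Pax6 > Meis2 cells, a log2 difference of -1.14 ± 0.089 (SE, BH-adjusted p = 7.51e-07). In Olig2 cells 16 of 30 tested were lower than in the other Meis2 > Pax6 cells and 0 higher, and in Tbr1 or Lmx1a cells 11 of 29 were lower and 3 higher. Of the closest relatives of the 9 genes, Nxph2 had no UMI in either of the 2 main classes, and C1ql2 stood at no more than 0.457 CPM there.

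Over the 16 class and library values of log2(CPM + 1), the genes most like each member among 9237 genes were named as a description, since the values share libraries and depth. C1ql3 ran closest to the prion protein gene Prnp (r = 0.964) and the adhesion gene Chl1 (r = 0.950), and C1ql4 to Enc1 (r = 0.952) and Igfbpl1 (r = 0.952). Cbln4 ran closest to Sorcs3 (r = 0.947) and the transcription factor gene Nhlh2 (r = 0.945). For Nxph1 the nearest were Ly6h (r = 0.969) and Slitrk1 (r = 0.967), and for Nxph4 the ankyrin gene Ank3 (r = 0.967) and Ankrd13b (r = 0.958). Nrxn3 was nearest to Lrrtm2 (r = 0.941), a postsynaptic partner of neurexins, and to Zdhhc20 (r = 0.925). C1ql1, Cbln1 and Cbln2 had no gene above r = 0.874, the value of C1ql1 with Ppp2r5b.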

How the data were processed

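Single cells sorted for tdTomato from the cerebellum at E14.5 were profiled in 2 control and 2 En1/2 CKO libraries with 10x Genomics 3′ chemistry, per the labels' protocols. The authors made the deposited matrices with Cell Ranger 5.0.0, per the file headers and the submitters' processing notes, which also name the genome build mm10. The annotation is not given in the sources used here. The deposited values are raw UMI counts, one for each gene in each barcode, and were not normalized. Gene positions come from GENCODE M21, in which 32235 of the 32285 gene IDs were found.

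Cells passed with 500 or more genes, 1000 or more UMIs and no more than 10% of UMIs mitochondrial. Doublets stayed in. An alternative removed the cells with the highest simulated-doublet scores (0.8% per 1000 cells), 68 and 124 of the control cells and 32 and 109 of the CKO cells. UMIs were summed per library and class. Sums were fitted in edgeR 4.0.16 (TMM, filterByExpr, quasi-likelihood F test, two-sided, R 4.3.3) with Benjamini-Hochberg adjustment over all genes tested and a threshold of 0.05. Standard errors (SE) were taken as the absolute log2 fold change divided by the root of F. CKO comparisons used the 4 sums of a class. Class comparisons and the interaction used 8 sums with the library as a block. Total UMIs per library were 14998150 to 33709450. Shares of cells were compared by an exact permutation test (scipy 1.17.1).

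Alternatives were DESeq2 1.42.0, library totals without TMM factors, no filter, each library left out, intact cells, cells thinned to 1000 UMIs, doublets removed, a replicate block, and classes without overlap. The crossed block and the fits within a genotype were chosen after seeing the data. The fits were also run on simulated counts with known changes, in which libraries of a fit differed in nothing else but their totals. That setting cannot show how the fits behave with libraries that differ in makeup. The rule for named genes took all 9 members, the 8 listed partners with the lowest adjusted p between the main classes, and the 2 genes with the highest correlation to each member at a mean of 10 CPM or more. One partner that the rule named is not reported here. The members, the partner list, the marker lists and the tests were chosen with earlier results of these data known.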

Additional observations from a re-analysis of the deposited data

How the results depend on the processing

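Counts of genes called are given with the number of the 9 genes called in parentheses. They were 8 (0) in Pax6 > Meis2, 25 (0) in Meis2 > Pax6, 2 (0) in Olig2, 1 (0) in Tbr1 or Lmx1a, 6473 (8) in Meis2 > Pax6 against Pax6 > Meis2, 2247 (5) in Olig2 against other Meis2 > Pax6 and 1877 (5) in Tbr1 or Lmx1a against other Meis2 > Pax6 cells and 15 (0) for the interaction. DESeq2 called 88 (1) in Pax6 > Meis2, 186 (0) in Meis2 > Pax6, 19 (2) in Olig2, 15 (1) in Tbr1 or Lmx1a, 1337 (5) in Olig2 against other Meis2 > Pax6 and 1019 (4) in Tbr1 or Lmx1a against other Meis2 > Pax6. Fits without a filter on low counts called 348 (4) in Pax6 > Meis2, 559 (6) in Meis2 > Pax6, 0 (0) in Olig2, 256 (3) in Tbr1 or Lmx1a and 84 (0) for the interaction. Fits to intact cells called 1 (0) in Pax6 > Meis2, 42 (0) in Meis2 > Pax6, 2 (0) in Tbr1 or Lmx1a, 70 (0) for the interaction, 1195 (5) in Olig2 against other Meis2 > Pax6 and 895 (4) in Tbr1 or Lmx1a against other Meis2 > Pax6. Fits to cells thinned to 1000 UMIs called 2 (0) in Meis2 > Pax6, 1 (0) in Olig2, 2 (0) in Tbr1 or Lmx1a, 23 (1) for the interaction, 2111 (4) in Meis2 > Pax6 against Pax6 > Meis2, 18 (2) in Olig2 against other Meis2 > Pax6 and 179 (4) in Tbr1 or Lmx1a against other Meis2 > Pax6. Fits with doublets removed called 15 (0) in Meis2 > Pax6 and 24 (0) for the interaction. The controls alone called 4076 (6) in Meis2 > Pax6 against Pax6 > Meis2, 389 (3) in Olig2 against other Meis2 > Pax6 and 470 (4) in Tbr1 or Lmx1a against other Meis2 > Pax6. Meis2 > Pax6 cells with no Olig2, Tbr1 or Lmx1a UMI gave 0 (0), and the Olig2 and the Tbr1 or Lmx1a cells that were also Meis2 > Pax6 gave 356 (4) and 0 (0). With each library left out in turn the counts ran from 2 (0) to 123 (2) for Pax6 > Meis2, from 44 (0) to 751 (4) for Meis2 > Pax6, from 28 (2) to 1308 (5) for Olig2, from 6 (0) to 461 (4) for Tbr1 or Lmx1a, from 28 (0) to 422 (6) for interaction, from 5384 (6) to 6866 (9) for Meis2 > Pax6 against Pax6 > Meis2, from 488 (3) to 3475 (5) for Olig2 against other Meis2 > Pax6 and from 825 (3) to 3074 (5) for Tbr1 or Lmx1a against other Meis2 > Pax6, with the lowest and highest of each number taken on its own. Not thinned, 18 of 36 pairs of gene and class (17 of the 35 tested) had shares that did not overlap, where 81.5% of pairs over all genes tested did not, against 9 thinned, where 31.8% did not. The cause of these moves was not tested. 

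The replicate numbers are shared by both genotypes, and the labels do not say that a number marks a shared day or litter. Same-numbered libraries deviated with a correlation of -0.16, -0.21, -0.31 and -0.097 in the Pax6 > Meis2, Meis2 > Pax6, Olig2 and Tbr1 or Lmx1a classes, so the numbers were not taken as pairs. With the replicate block the counts were 0 (0) in Pax6 > Meis2, 58 (1) in Meis2 > Pax6, 0 (0) in Olig2 and 0 (0) in Tbr1 or Lmx1a cells, the 1 gene being Cbln4 at a log2 fold change of 1.72 (adjusted p = 0.0246). With the numbers crossed, an alternative chosen after seeing the data, they were 207 (4) in Pax6 > Meis2, 763 (6) in Meis2 > Pax6 and 449 (4) in Olig2 cells.

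Some log2 differences changed sign, none of them called in the fits reported except that of Nrxn3 between Olig2 and other Meis2 > Pax6 cells. After thinning they were -0.68 for C1ql1 (Pax6 > Meis2), -0.44 for C1ql4 (Pax6 > Meis2), 0.093 for Cbln2 (Pax6 > Meis2), 0.043 for C1ql3 (Meis2 > Pax6), 0.31 for Nrxn3 (Tbr1 or Lmx1a), 0.35 for Cbln1 (Olig2 against other Meis2 > Pax6), 0.38 for Nxph4 (Olig2 against other Meis2 > Pax6) and 0.34 for Nrxn3 (Olig2 against other Meis2 > Pax6). Over intact cells they were 0.052 for Cbln2 (Pax6 > Meis2), 0.19 for Cbln1 (Meis2 > Pax6), 0.70 for C1ql3 (Olig2), -0.19 for C1ql3 (interaction), -0.78 for Cbln4 (interaction), -0.14 for Nxph4 (interaction), 0.11 for Cbln1 (Olig2 against other Meis2 > Pax6) and -0.059 for Nxph4 (Tbr1 or Lmx1a against other Meis2 > Pax6). In the controls alone they were -0.0013 for Cbln1 (Meis2 > Pax6 against Pax6 > Meis2), 0.053 for C1ql1 (Olig2 against other Meis2 > Pax6), 0.061 for Cbln1 (Olig2 against other Meis2 > Pax6) and 0.29 for Nxph4 (Olig2 against other Meis2 > Pax6). In the CKO libraries alone they were -0.21 for Cbln2 (Olig2 against other Meis2 > Pax6), -0.00079 for Cbln1 (Tbr1 or Lmx1a against other Meis2 > Pax6) and -0.16 for Nxph4 (Tbr1 or Lmx1a against other Meis2 > Pax6). Without TMM factors they were -0.092 for Cbln4 (Pax6 > Meis2). With doublets removed they were -0.069 for Cbln4 (Pax6 > Meis2) and -0.012 for Cbln2 (Olig2 against other Meis2 > Pax6). With the replicate block they were -0.050 for Cbln4 (Pax6 > Meis2) and 0.070 for C1ql3 (Olig2). With the crossed block they were 0.060 for C1ql3 (Olig2). In cells also Meis2 > Pax6 they were 0.73 for C1ql3 (Olig2) and -0.54 for Cbln2 (Tbr1 or Lmx1a). In Meis2 > Pax6 cells with no Olig2, Tbr1 or Lmx1a UMI they were 0.0065 for Cbln1 (Meis2 > Pax6). With a library left out they ran from -0.66 to 2.94 for C1ql4 (Pax6 > Meis2), from -0.40 to 0.098 for Cbln2 (Pax6 > Meis2), from -0.32 to 0.31 for Cbln4 (Pax6 > Meis2), from -0.22 to 0.21 for Cbln1 (Meis2 > Pax6), from -0.86 to 1.43 for C1ql3 (Olig2), from -2.07 to 5.11 for C1ql4 (Tbr1 or Lmx1a), from -0.42 to 1.39 for Cbln2 (Tbr1 or Lmx1a), from -0.67 to 1.62 for C1ql4 (interaction), from -0.46 to 0.027 for Cbln2 (interaction), from -0.41 to 0.17 for C1ql1 (Olig2 against other Meis2 > Pax6), from -0.24 to 0.26 for Cbln2 (Olig2 against other Meis2 > Pax6), from -0.54 to 0.41 for Nxph4 (Olig2 against other Meis2 > Pax6) and from -0.13 to 0.38 for Nxph4 (Tbr1 or Lmx1a against other Meis2 > Pax6). In all other alternatives that gave a value for one of the 9 genes, its direction was that reported. Depth limits the Olig2 class after thinning most: 18 to 178 cells were left per library, and none of the 9 genes had enough UMIs to be tested in the CKO comparison.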

Other observations

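The 1501 kept cells in no class, which had equal numbers of Pax6 and Meis2 UMIs and no Olig2, Tbr1 or Lmx1a UMI, also held transcripts of these genes. Nrxn3 stood at 266 and 220.4 CPM in the controls and 174 and 251 CPM in the CKO libraries in them. C1ql3 stood at 102 and 142 CPM in the controls and 45.7 and 21.5 CPM in the CKO libraries, and Nxph1 at 12.2 and 40.7 CPM in the controls and 6.09 and 9.05 CPM in the CKO libraries. C1ql4 stood at 7.84 and 19.9 CPM in the controls and 42.6 and 12.4 CPM in the CKO libraries, and Cbln4 at 6.10 and 7.57 CPM in the controls and 6.09 and 3.39 CPM in the CKO libraries, from 7 and 8 UMIs in the controls and 4 and 3 UMIs in the CKO libraries. No test was made of these cells.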
